A study of Mus musculus with 12 samples.

Results

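The genes described here are 10 that encode parts of the sperm calcium channel, the acrosome and the gamete fusion machinery: Catsper1, Catsper2, Catsper3, Catsper4, Izumo1, Acr, Acrbp, Spaca1, Zpbp and Spata16. They were taken by name from 21887 protein-coding genes on mouse chromosomes 1 to 19, X and Y, and all 10 were found in the RefSeq annotation of GRCm38.p6, which is the assembly behind the files' build, mm10. Chromatin immunoprecipitation and sequencing (ChIP-seq) was done on spermatogenic cells of testes at postnatal day 18 from mice of mixed background. INO80, the ATPase of a chromatin remodelling complex, was precipitated from wild-type cells, and the histone variant H2A.Z from cells labelled Ino80WT and from cells labelled Ino80cKO, in which Ino80 was deleted with Stra8-Cre, a recombinase expressed from premeiotic germ cells onward. The 12 libraries form 6 groups of 2 (3 ChIP groups and an input group for each). Neither the Cre status of the Ino80WT mice nor the number of animals behind a library is given in the sources used here. The data are 3 peak lists, 1 for each ChIP group, that give the position of each peak and no height: 18139 INO80 peaks (median width 678 bp), 33827 wild-type H2A.Z peaks (460 bp) and 26199 knockout H2A.Z peaks (422 bp). Each list stands for 2 libraries together, so the values below carry neither a replicate error nor a test, and the read depth is unknown. An absent peak means only that none was listed. The lists hold no expression value with which the cell type label or the deletion could be checked.

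CatSper is a calcium channel of the sperm tail that is needed for hyperactivated swimming. CATSPER1 to CATSPER4 form its pore, and several accessory subunits surround it. The acrosome is a secretory vesicle that the Golgi apparatus builds over the nucleus of the round spermatid, and its release exposes enzymes and membrane proteins that let the sperm reach and fuse with the egg. Most of these proteins act in haploid cells, whereas the most advanced germ cells at postnatal day 18 are mainly pachytene spermatocytes. H2A.Z is a histone variant found at the first nucleosomes of many promoters, and INO80 can exchange it or move the nucleosomes that carry it.

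Of the 10 genes, 4 held a listed peak at their own start site and 6 held none, where 34.0% of all protein-coding genes had no peak of any list within 1 kb of a start. Spaca1, Zpbp and Catsper2 had INO80 and H2A.Z of both genotypes there, and Spata16 had narrow H2A.Z peaks of both genotypes without INO80. Catsper1, Catsper3 and Izumo1 had peaks within 5 kb of the gene, and every one of those peaks overlapped a neighbour: Cst6, Pitx1, Fut1 or Rasip1. Catsper4, Acr and Acrbp had no peak of any list within 5 kb.

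The sequence before the start site is shown for the 4 genes with a peak there and for 3 without, because the promoters differ in CpG content, a property that went with peaks across all genes (below). Sequences are from the RefSeq promoter table of GRCm38.p6, 5′ to 3′ on the strand of the gene, with every CG in capitals, and each ends at the base before the start site or at the outermost annotated base of the gene. They begin 250 bases before the start site, or at the edge of the next annotated gene if that is nearer. The genes with peaks were Spaca1 (chr4:34050068-34050317, minus strand), Zpbp (chr11:11462420-11462669, minus strand), Catsper2 (chr2:121413793-121413901, minus strand) and Spata16 (chr3:26637381-26637619, plus strand).
Spaca1: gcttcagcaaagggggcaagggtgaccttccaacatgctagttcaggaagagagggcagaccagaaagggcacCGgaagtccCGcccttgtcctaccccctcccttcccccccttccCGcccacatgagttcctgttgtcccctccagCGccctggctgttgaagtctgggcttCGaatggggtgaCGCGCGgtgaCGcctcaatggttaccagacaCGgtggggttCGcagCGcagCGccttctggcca
Zpbp: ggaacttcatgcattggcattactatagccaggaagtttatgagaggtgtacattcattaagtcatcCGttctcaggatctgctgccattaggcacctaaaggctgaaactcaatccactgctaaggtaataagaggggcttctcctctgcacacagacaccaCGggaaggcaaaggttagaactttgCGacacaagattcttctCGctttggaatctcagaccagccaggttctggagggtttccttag
Catsper2: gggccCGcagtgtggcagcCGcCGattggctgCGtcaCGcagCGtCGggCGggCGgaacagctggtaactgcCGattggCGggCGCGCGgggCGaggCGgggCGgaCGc
Spata16: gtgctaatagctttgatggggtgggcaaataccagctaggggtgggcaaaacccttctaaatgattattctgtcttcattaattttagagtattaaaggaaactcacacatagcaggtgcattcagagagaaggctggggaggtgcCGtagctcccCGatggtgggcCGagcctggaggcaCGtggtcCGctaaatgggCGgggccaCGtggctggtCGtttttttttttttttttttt

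The genes shown without peaks at the start were Izumo1 (chr7:45621561-45621810, plus strand), Acrbp (chr6:125049854-125049926, plus strand) and Catsper4 (chr4:134227432-134227633, minus strand). Catsper1 and Acr have no entry in the promoter table. Catsper3, also without a peak at its start, is not printed: its stretch is 31 bases with 0 CG.
Izumo1: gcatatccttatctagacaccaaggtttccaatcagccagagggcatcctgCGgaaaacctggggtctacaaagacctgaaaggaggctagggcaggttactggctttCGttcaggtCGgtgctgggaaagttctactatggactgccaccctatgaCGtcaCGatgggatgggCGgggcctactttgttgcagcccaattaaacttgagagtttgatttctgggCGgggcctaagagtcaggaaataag
Acrbp: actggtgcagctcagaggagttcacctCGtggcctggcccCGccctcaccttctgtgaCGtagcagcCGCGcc
Catsper4: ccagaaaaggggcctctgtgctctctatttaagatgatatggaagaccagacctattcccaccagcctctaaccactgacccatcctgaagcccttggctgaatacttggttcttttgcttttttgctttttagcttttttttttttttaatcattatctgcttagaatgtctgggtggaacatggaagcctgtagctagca

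The number of CG dinucleotides printed in capitals was 18 in the 109 bases of Catsper2, 13 in the 250 bases of Spaca1, 8 in the 239 bases of Spata16 and 4 in the 250 bases of Zpbp. Among the printed genes without a peak it was 7 in the 250 bases of Izumo1, 5 in the 73 bases of Acrbp and 0 in the 202 bases of Catsper4.

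Counted over the gene body and 5 kb on both sides, a peak counting as present when it shared 1 bp or more, INO80 was found at 5 of 10 genes, where the share of all protein-coding genes was 63.3%. Wild-type H2A.Z was present at 6 of 10 (all genes 73.6%) and knockout H2A.Z at 7 of 10 (all genes 70.1%). At 10 genes these shares are near the background. Within 1 kb of a start site, INO80 was present at 3 of 10 genes (all genes 55.9%), wild-type H2A.Z at 4 (63.9%) and knockout H2A.Z at 4 (60.7%). For Catsper1 and Acr, and for the other genes without a promoter entry, either annotated end of the gene stood in for the start site. Among the 8 members with an entry the counts were 3, 4 and 4, against 56.0%, 63.9% and 60.9% of 17492 genes with one. No peak of any list lay within 1 kb of a start site at 6 members (all genes 34.0%), and none within the 5 kb window at 3 (all genes 25.0%). Among genes with a promoter entry the former applied to 4 of 8 members (all such genes 34.1%). Peaks of all 3 lists lay within 1 kb of a start site at 3 members (all genes 52.3%).

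**Figure D1:**
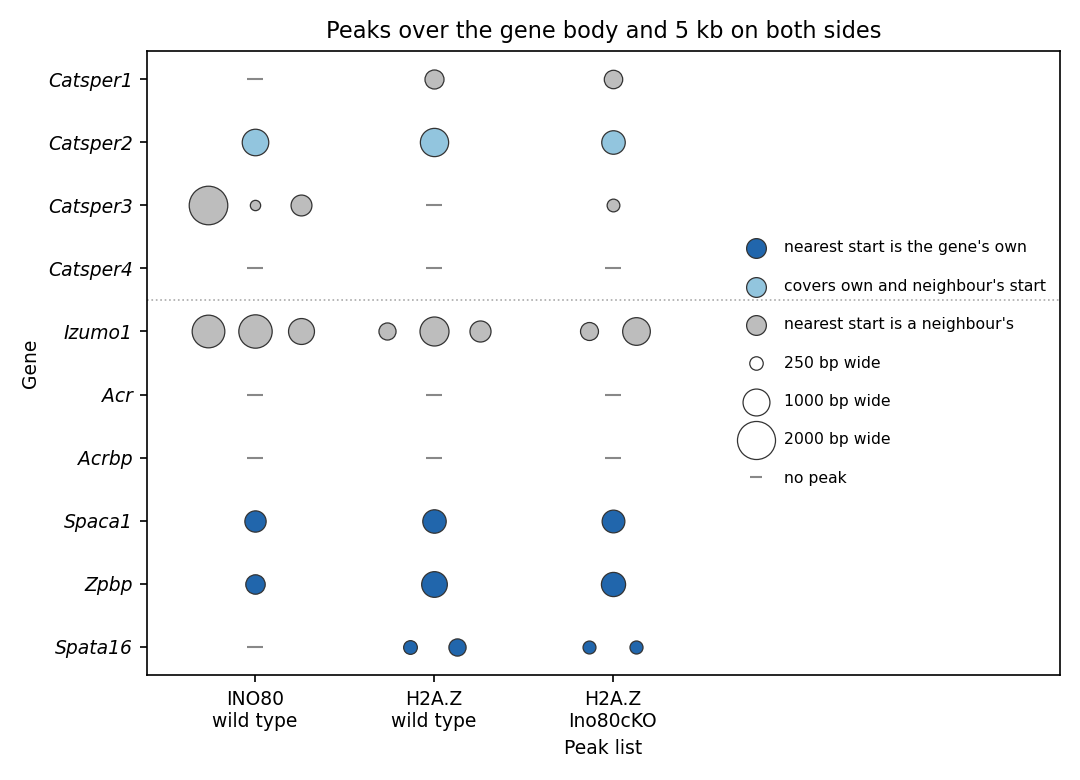
Each row is 1 of the 10 genes and each column a peak list; a circle is a peak over the gene body or within 5 kb of it, its area proportional to the width in bp, and a dash is no peak. Dark blue circles (own start nearest) are confined to Spaca1, Zpbp and Spata16, light blue ones (start shared with a neighbour) to Catsper2, and all circles of Catsper1, Catsper3 and Izumo1 are grey (a neighbour's start nearest).

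The windows of the 10 genes held 27 peaks in all, 9 from each list. By the nearest start site among protein-coding genes, either annotated end standing in where a gene (Cst6 and Pitx1 among them) has no promoter entry, 13 peaks belonged to a member, alone or shared, and 14 to a neighbour. Of the INO80 peaks 3 of 9 belonged to a member, and of the H2A.Z peaks 5 of 9 in each genotype. A peak nearest to the gene's own start was thus present at 3 members for INO80 (all genes 57.5%), at 4 for wild-type H2A.Z (69.3%) and at 4 for knockout H2A.Z (65.0%). Having peaks in the window of which none was nearest to the gene's own start was uncommon: it applied to 741 of 21887 protein-coding genes (3.39%) and to 3 of the 10 members.

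Among the 4 pore genes of CatSper, Catsper2 (chromosome 2, 121391633 to 121414598) was the one with peaks at its start. The INO80 peak spanned 121413471 to 121414443 (973 bp, the 64.7th percentile of INO80 widths), and the wild-type H2A.Z peak 121413340 to 121414443 (1104 bp, 88.9th percentile). The knockout H2A.Z peak spanned 121413434 to 121414197 (764 bp, 76.0th percentile). Catsper2 lies head to head with Pdia3, which encodes a protein disulfide isomerase of the endoplasmic reticulum, and the 2 start sites are 110 bp apart. The annotated span of Catsper2 extends past this start and overlaps Pdia3 by 697 bp. The bases printed before the Catsper2 start thus lie inside that span. All 3 peaks covered both starts and every one of the 109 bases between them, so they cannot be given to either gene. Of 1483 genes with a divergent protein-coding partner that starts within 1 kb upstream, 89.8% held INO80 and 95.6% wild-type H2A.Z within 1 kb of a start, against 51.4% and 59.6% of 15190 genes with no divergent partner.

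Catsper1 (chromosome 19, 5335615 to 5344281) had no INO80 peak in its window, and the nearest lay 21.9 kb away over the ends of Banf1 and Eif1ad. Its wild-type H2A.Z peak (5349042 to 5349542, 501 bp) and knockout H2A.Z peak (5349008 to 5349476, 469 bp) lay 4761 and 4727 bp from the gene, inside Cst6, a cystatin gene, at the end farther from Catsper1. They shared 435 bp. The wild-type peak ended 32 bp from the annotated end of Cst6 and reached 240 bp into the window, so the presence of H2A.Z at Catsper1 rests on the window size.

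Catsper3 (chromosome 13, 55784500 to 55824048) had 3 INO80 peaks in its window, all beyond its end coordinate and over Pitx1, a homeobox gene of hindlimb and pituitary development whose nearer annotated end is 995 bp further on. Pitx1 and Cst6 have no promoter entry, so where these peaks lie relative to their start sites was not determined. They spanned 55824827 to 55826882 (2056 bp, 90.2nd percentile), 55827823 to 55827969 (147 bp) and 55828405 to 55829007 (603 bp). The first of them starts 779 bp past the end of Catsper3 and more than 40 kb past its start (40248 bp). No peak of any list lay within 5 kb of the start of Catsper3, where a long non-coding RNA gene, 4930451E10Rik, begins 111 bp away on the other strand. A knockout H2A.Z peak of 224 bp (55825977 to 55826200, 22.7th percentile) lay wholly inside the widest of these INO80 peaks, and no wild-type H2A.Z peak was listed there. The nearest wild-type H2A.Z peak, 545 bp wide, started 6987 bp from Catsper3 and overlapped a knockout peak of 584 bp.

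Catsper4 (chromosome 4, 134211965 to 134227431) had no peak of any list within 5 kb. The nearest INO80 (281 bp), wild-type H2A.Z (764 bp) and knockout H2A.Z (343 bp) peaks lay 10.8, 10.4 and 10.8 kb away, all 3 across the start of Cnksr1, a signalling scaffold gene.

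Among the acrosome genes, Spaca1 (chromosome 4, 34024872 to 34050067), which encodes an acrosomal membrane protein needed for the shape of the acrosome, had 1 peak of each list. The promoter table gives Spaca1 2 start sites. Each peak covered the first in the direction of transcription, at 34050067, from which the distances here are counted. The INO80 peak spanned 34049648 to 34050273 (626 bp, 47.0th percentile), the wild-type H2A.Z peak 34049658 to 34050416 (759 bp, 72.6th percentile) and the knockout H2A.Z peak 34049722 to 34050436 (715 bp, 72.9th percentile). INO80 reached 206 bp before and 419 bp past the start, wild-type H2A.Z 349 and 409 bp, and knockout H2A.Z 369 and 345 bp. No other annotated gene lies within 5 kb of Spaca1, so these peaks have no other candidate owner in the window.

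Zpbp (chromosome 11, 11279624 to 11464223), which encodes a zona pellucida binding protein of the acrosomal matrix, likewise had 1 peak of each list across its start site at 11462419. The INO80 peak spanned 11461994 to 11462514 (521 bp, 40.4th percentile) and lay wholly inside both H2A.Z peaks. The wild-type H2A.Z peak spanned 11461780 to 11462690 (911 bp, 80.7th percentile) and the knockout peak 11461767 to 11462575 (809 bp, 78.3rd percentile). Here all 3 peaks reached further into the gene than before it: 425 bp against 95 bp for INO80, 639 against 271 bp for wild-type H2A.Z and 652 against 156 bp for knockout H2A.Z. Spata48, whose start lies 1325 bp upstream on the other strand, was not reached by any of them. The annotated span of Zpbp extends past this start into Spata48, and no peak lay at that outer end.

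Spata16 (chromosome 3, 26637620 to 26983249), which encodes a Golgi and proacrosomal vesicle protein, held H2A.Z without INO80. A wild-type peak of 260 bp (26637655 to 26637914, 25.8th percentile) and a knockout peak of 231 bp (26637633 to 26637863, 23.8th percentile) began 24 and 2 bp past its start site, so both lay on the transcribed side and neither covered the start. The nearest INO80 peak was 170 kb from the gene, near the start of Ect2. Wild-type H2A.Z without INO80 at a start site was seen at 9.78% of all genes. Spata16 is 346 kb long, and of 2429 protein-coding genes over 100 kb 84.8% had INO80 in the same window.

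A pair of narrow H2A.Z peaks inside Spata16 had no partner in the other genotype. A wild-type peak of 409 bp (26878996 to 26879404) lay 241365 bp past the start of Spata16 and over the start of Gm32458, a long non-coding RNA gene on the other strand. A knockout peak of 235 bp (26697939 to 26698173) lay 60308 bp past the start, with no closer annotated start. INO80 overlapped neither.

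**Figure D2:**
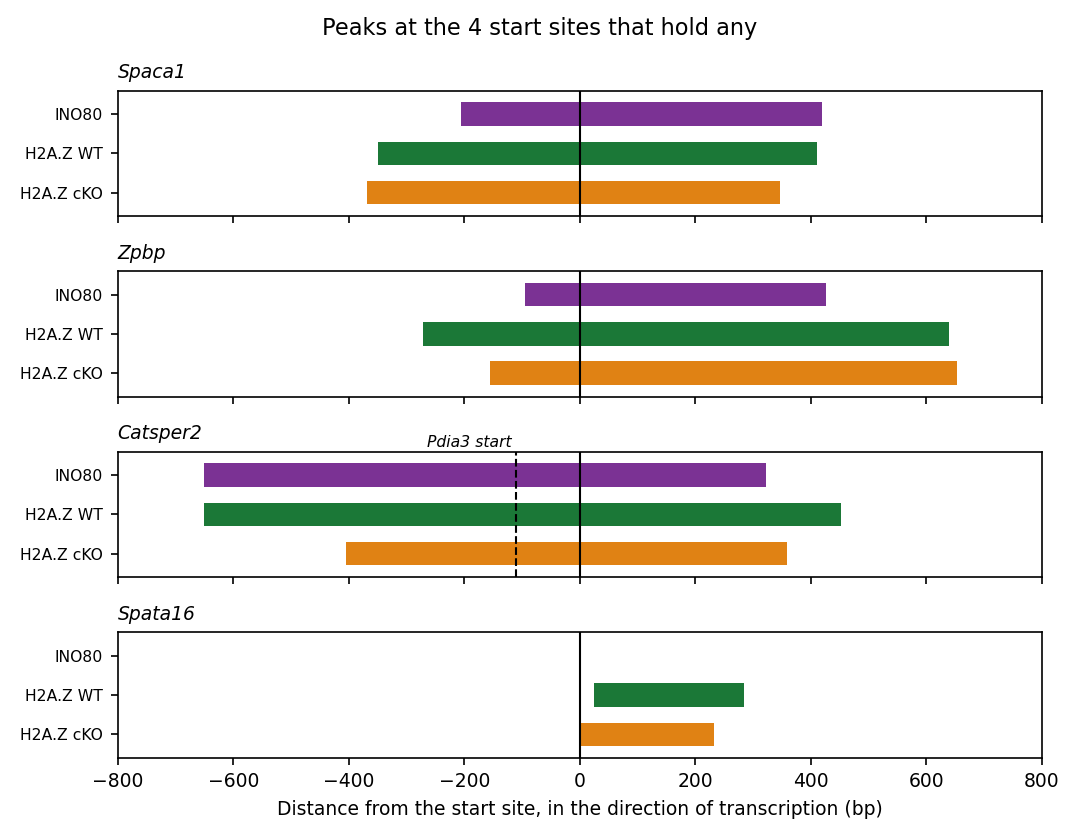
Peaks around the start sites of Spaca1, Zpbp, Catsper2 and Spata16, as bars from the first to the last base of each peak, in bp from the start (solid line) with transcription to the right; the dashed line is the start of Pdia3, 110 bp from that of Catsper2. The peaks cross the start in Spaca1, Zpbp and Catsper2, and begin 24 bp (wild type) and 2 bp (knockout) past it in Spata16, which has no INO80 bar.

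Izumo1 (chromosome 7, 45621811 to 45627242), which encodes the sperm surface protein that binds the egg receptor JUNO, is only 5.43 kb long and lies between Fut1, a fucosyltransferase gene that ends 751 bp before it, and Rasip1, a Ras-interacting protein gene that begins 294 bp after it. Its window held 3 INO80 peaks of 1475, 1539 and 929 bp, and none touched Izumo1. The first covered the start of Fut1, together with a wild-type H2A.Z peak of 404 bp and a knockout H2A.Z peak of 446 bp. The second lay 280 bp past the start of Rasip1 with H2A.Z peaks of 1163 bp (wild type, 90.7th percentile) and 1058 bp (knockout, 89.4th percentile). The third lay within Rasip1, 4512 bp past its start. There the wild-type H2A.Z peak (613 bp) reached 6 bp into the window while the overlapping knockout peak (639 bp) began 22 bp outside it. The difference of 3 wild-type against 2 knockout peaks at Izumo1 is thus set by the window edge.

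**Figure D3:**
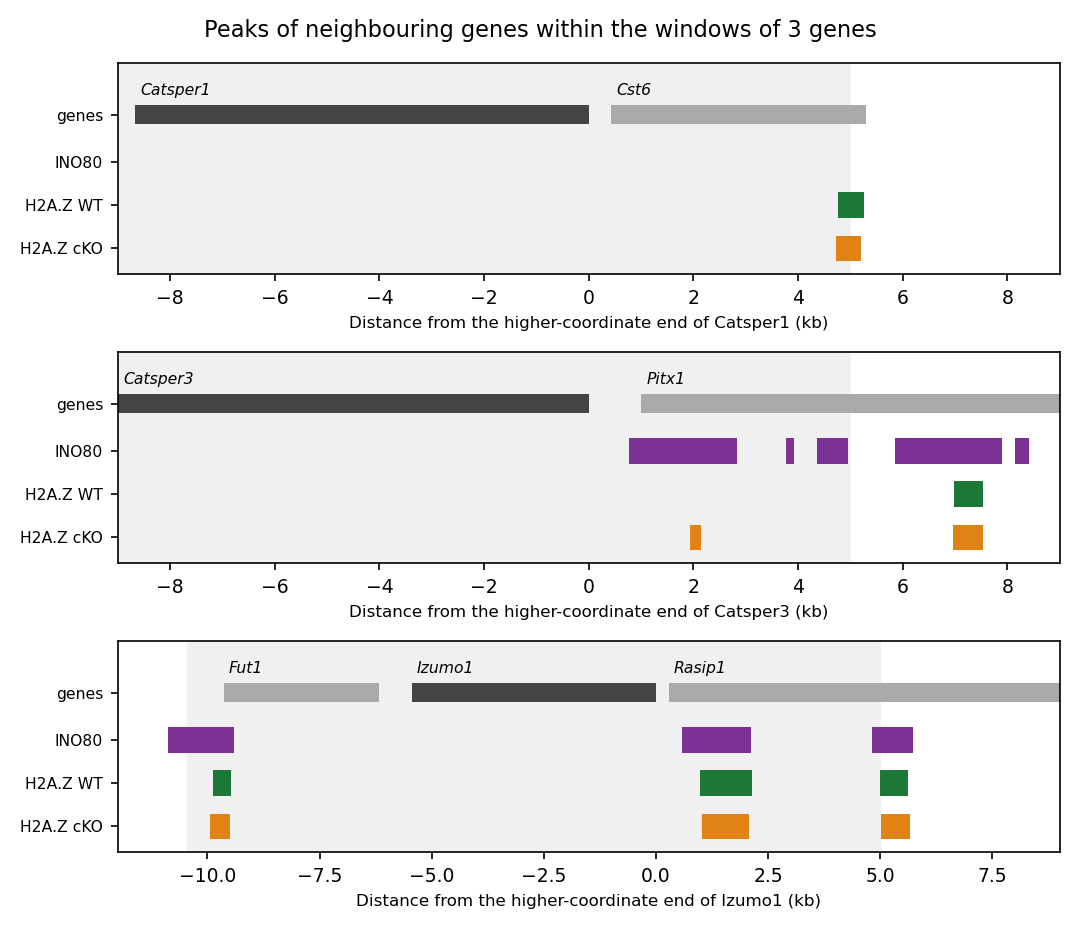
Genes (dark bar the member, grey bars its protein-coding neighbours) and peaks of the 3 lists around Catsper1, Catsper3 and Izumo1, in kb from the higher-coordinate end of each. The grey background is the gene body and 5 kb on both sides. The Catsper1 panel leaves out most of the 5 kb on the lower-coordinate side, and Catsper3 continues to the left of its panel. No bar of any list lies over a dark gene bar, and the 224 bp knockout H2A.Z peak near Catsper3 lies below the 2056 bp INO80 peak over Pitx1.

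Acr, which encodes the protease acrosin (chromosome 15, 89568326 to 89578853), and Acrbp, whose product binds its precursor (chromosome 6, 125049927 to 125063265), had no peak of any list within 5 kb. The nearest peaks to Acr were INO80 at 8825 bp (3026 bp wide) and knockout H2A.Z at 10296 bp (181 bp wide), both inside Shank3, and wild-type H2A.Z at 12641 bp (1042 bp wide) across the start of Rabl2. For Acrbp all 3 lists had their nearest peak inside Lpar5, at 17857 bp (INO80), 18211 bp (wild-type H2A.Z) and 18184 bp (knockout H2A.Z). The start of the long non-coding RNA gene 4930557K07Rik lies 74 bp from that of Acrbp on the other strand. Of 819 genes with a divergent partner that is not protein-coding, as Acrbp and Catsper3 have, 10.6% had no peak of any list at a start site.

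In the genotype comparison, H2A.Z was listed in both genotypes in the window of 6 members (all genes 69.6%), in the knockout alone at 1, Catsper3 (all genes 0.571%), in the wild type alone at 0 (all genes 4.00%) and in neither at 3 (all genes 25.9%). The knockout-only call at Catsper3 was the 224 bp peak over Pitx1. At the start sites 4 members had H2A.Z in both genotypes (all genes 60.2%), 6 in neither (35.6%), 0 in the wild type alone (3.72%) and 0 in the knockout alone (0.576%), so no member had a listed H2A.Z peak at its start in 1 genotype alone.

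At those 4 start sites the knockout peak was narrower than the wild-type peak each time. At Catsper2 it was 340 bp narrower (69.2% of the wild-type width, log2 ratio -0.53). The difference was unequal on the sides: 246 bp on the Pdia3 side and 94 bp on the Catsper2 side. At Zpbp the knockout peak was 102 bp narrower (log2 ratio -0.17), at Spaca1 44 bp (log2 ratio -0.09) and at Spata16 29 bp (log2 ratio -0.17). The median over the 4 was -0.17. Narrower knockout peaks were general: over 13245 regions within 1 kb of a start site with both genotypes the median log2 ratio was -0.16 (quartiles -0.49 and 0.02), and 71.7% were narrower in the knockout. The 4 members thus lay within the body of this distribution, Catsper2 at its 22.9th percentile, Zpbp at the 48.1st, Spata16 at the 48.2nd and Spaca1 at the 59.3rd. Widths of lists called separately also move with depth and with the peak threshold, whose part was not tested.

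**Figure D4:**
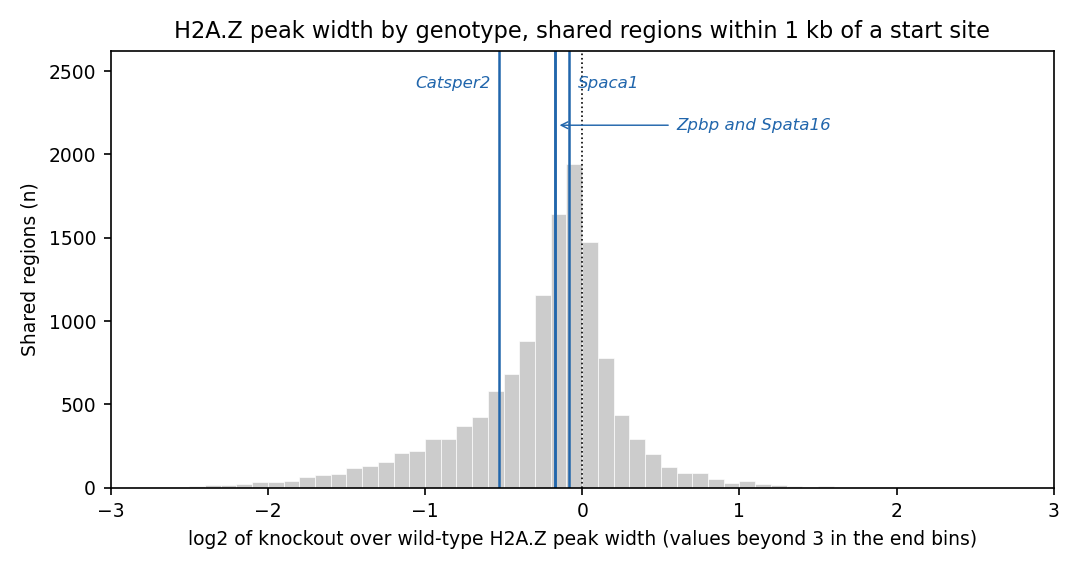
Histogram of the log2 ratio of knockout to wild-type H2A.Z peak width over 13245 shared regions within 1 kb of a start site, with blue lines at the 4 member regions and a dotted line at equal width. All 4 lines lie left of 0, where 71.7% of the regions lie, and Catsper2 is the farthest at -0.53.

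The promoters of the 8 genes in the RefSeq promoter table (250 bases before to 50 after the start site, 300 in all) were compared by the CpG ratio, which divides the observed number of CG dinucleotides by the number expected from the C and G content. The ratio was 1.007 for Catsper2, 0.690 for Acrbp, 0.539 for Spaca1, 0.523 for Spata16, 0.423 for Izumo1, 0.374 for Zpbp, 0.147 for Catsper3 and 0.123 for Catsper4. The member median was 0.473 and that of 17492 protein-coding genes 0.564 (quartiles 0.229 and 0.816). Across all these genes the share with a start-site peak went up with the CpG ratio. INO80 was present at 2.35% of genes with a ratio under 0.2, 20.6% from 0.2 to 0.4, 65.4% from 0.4 to 0.6, 87.0% from 0.6 to 0.8 and 93.3% from 0.8.

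Read against these shares, Catsper3 and Catsper4 had no peak in a range where 93.9% of genes had none of any list, and Catsper2 had all 3 in a range where 1.39% had none. Zpbp held INO80 and both H2A.Z peaks with a ratio at which 20.6% of genes held INO80 and 33.4% wild-type H2A.Z. Acrbp stood on the other side: 2.27% of genes in its range had no peak of any list at a start site. For Izumo1, also without a peak at its start, that share was 14.2%, and Spaca1 and Spata16 fall in the same range. The order of the 8 genes by CpG ratio thus matched the presence of peaks at its ends but not throughout. Acrbp (0.690), without a peak, stood above Spaca1 (0.539), Spata16 (0.523) and Zpbp (0.374), which held peaks. Izumo1 (0.423), also without a peak, stood above Zpbp. Whether CpG content bears on the peaks of these genes was not tested.

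**Figure D5:**
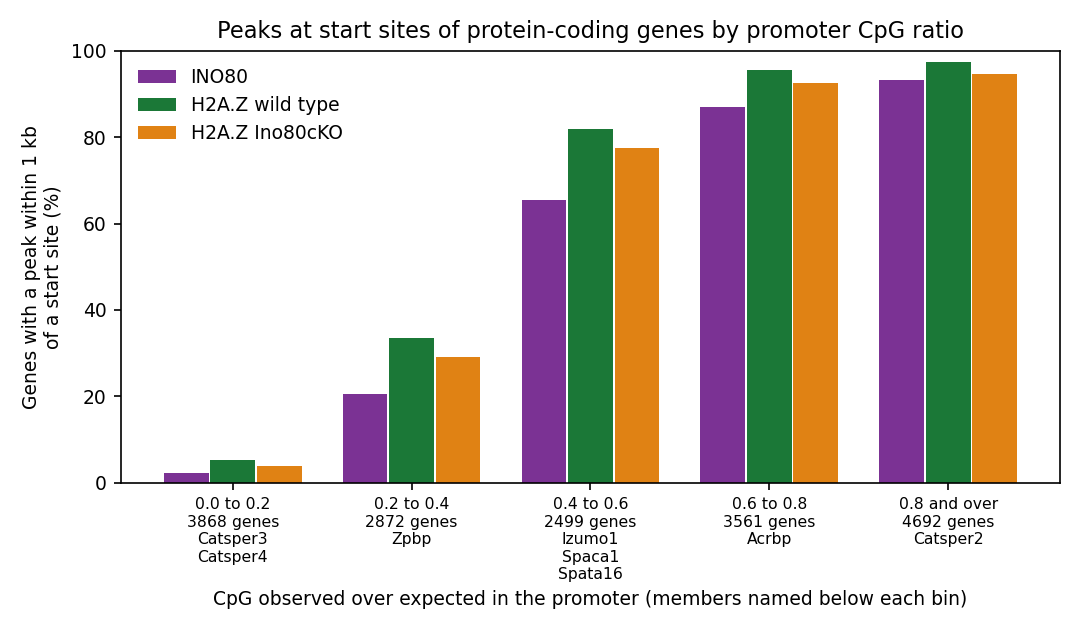
Percentage of protein-coding genes with a peak within 1 kb of a start site, in 5 bins of the promoter CpG ratio (observed over expected), for INO80, wild-type H2A.Z and Ino80cKO H2A.Z; the number of genes and the members in each bin stand below it. INO80 goes from 2.35% in the lowest bin to 93.3% in the highest, and Acrbp, which has no peak, stands in a bin where INO80 is at 87.0%.

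Other genes of the same processes were read against the same shares of all genes at start sites (INO80 55.9%, wild-type H2A.Z 63.9% and knockout H2A.Z 60.7%). Of 12 accessory subunit genes of CatSper, INO80 lay within 1 kb of a start site at 3, wild-type H2A.Z at 6 and knockout H2A.Z at 5. Catsperg1 and Catsperg2, which encode the gamma subunit, and Catsperd, the delta subunit gene, held all 3, but the peaks of Catsperd also cover the start of its neighbour Lonp1. Catsperz and C2cd6 held H2A.Z of both genotypes without INO80. Catspere1 held a wild-type H2A.Z peak of 256 bp alone. Of 10 other genes of sperm ion transport, 2 held INO80, 2 wild-type H2A.Z and 3 knockout H2A.Z. Among these, Slc9b2, a sodium-proton exchanger gene, had H2A.Z of 447 bp (wild type) and 399 bp (knockout) without INO80. P2rx2, which has no promoter entry, held INO80 (1005 bp) and a knockout H2A.Z peak of 160 bp without a wild-type one. Kcnu1, the potassium channel gene of sperm, Hvcn1, the proton channel gene, and Slc9c1, a sperm sodium-proton exchanger gene, had no peak of any list at a start site. Like P2rx2, the genes Catsperg2, Kcnu1 and Hvcn1 have no promoter entry, so their annotated ends stood in for the start site.

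Of 24 further genes of acrosome content and formation, 8 held INO80, 10 wild-type H2A.Z and 10 knockout H2A.Z within 1 kb of a start site. All 3 were present at Zpbp2, the paralogue of Zpbp, where the wild-type H2A.Z peak was 1024 bp and the knockout peak 1005 bp wide, at Dpy19l2, Gopc and Pick1, whose products act in acrosome attachment and vesicle traffic, and at Tmprss12, Ccin, Spaca9 and Pcsk4. At Spaca9, however, the INO80 and knockout H2A.Z peaks were nearer to the start of its neighbour Ak8. At Pcsk4, which has no promoter entry, they were nearer to the neighbours 2310011J03Rik or Reep6. The peak nearest to Pcsk4 itself was a wild-type H2A.Z peak of 535 bp, without INO80 or a knockout peak. Spink2 and Prss21 held H2A.Z of both genotypes without INO80. The other 14 of the 24 had none, where 34.0% of all genes had no peak of any list at a start site. Among them were the genes of acrosomal content Acrv1, Spam1 and Zp3r and the acrosome attachment genes Fam209, Actl7a and Actl9. Of 9 genes of sperm-egg fusion, 1 held INO80, 2 wild-type H2A.Z and 1 knockout H2A.Z. Izumo4, which has no promoter entry, held a wild-type H2A.Z peak of 306 bp without a knockout one. The INO80 there, 564 bp wide, did not overlap that peak, and its nearest genes included the neighbour Mob3a. Tmem95 held H2A.Z of 384 bp (wild type) and 175 bp (knockout). Together 14 of these 55 genes held INO80 at a start site (25.5%, all genes 55.9%), 20 wild-type H2A.Z (36.4%, all genes 63.9%) and 19 knockout H2A.Z (34.5%, all genes 60.7%). At their start sites, 17 merged regions with both genotypes were nearest to the listed gene, alone or equally with a neighbour. The latter were those of Catsperd (with Lonp1) and Spaca9 (with Ak8). Of the 17 regions, 13 were narrower and 4 wider in the knockout, near the 71.7% narrower among all shared regions at start sites. Their median log2 ratio of knockout to wild-type width was -0.36 (all such regions -0.16). A pair of shared regions at these start sites was left out because a neighbour's start was nearer: 1 at Slc26a8, nearest to Mapk14 (log2 ratio 0.04), and 1 at Pcsk4, nearest to Reep6 (-0.94).

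Among 10 genes of the synaptonemal complex, which are active in the spermatocytes of this age, 7 held INO80, 9 wild-type H2A.Z and 9 knockout H2A.Z at a start site, against 3, 4 and 4 of the 10 members (all genes 55.9%, 63.9% and 60.7%). Of 6 protamine, transition protein and spermatid linker histone genes, 1 held INO80 (H1f7) and another, Tnp1, held H2A.Z of both genotypes. For each list this is 16.7%, below those shares of all genes. Markers of Sertoli cells held INO80 at 4 of 7 genes (57.1%, near the 55.9% of all genes), of Leydig cells at 2 of 6 (33.3%) and of peritubular cells at 1 of 2. Peaks are not expression values, so the share of somatic cells in the samples cannot be read from these counts and its part in the results was not tested.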

How the data were processed

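The authors deposited 1 peak list for each of the 3 ChIP groups, with 3 columns (chromosome, start counted from 0 and end) and no score; 1 was added to each start for the positions printed here. The submitters' processing notes name Bowtie2, SAMtools, deepTools, MACS2 and mm10. How they were run, which control was used, where the peak threshold lay and how replicate libraries were merged is not given in the sources used here. Per the labels' protocols, chromatin was digested with micrococcal nuclease after formaldehyde fixation, so the outline of a peak follows nucleosomes as well as binding. No input library and no value of a single library was used here.

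Genes came from the RefSeq table of GRCm38.p6, without exons, and start sites and strand from its promoter table (17492 of 21887 protein-coding genes, 79.9%); other genes were given both annotated ends. Presence means an overlap of at least 1 bp. A peak was assigned to the protein-coding gene with the nearest start site, and it was called shared where it covered the starts of several. Wild-type and knockout H2A.Z peaks that overlap were merged into 1 region, and widths were summed within a region. Percentiles of width are within a list. The members, gene lists and comparisons were chosen with earlier results of these data known. All 10 members are named with all their peaks, and genes of the other lists by the presence of peaks. Fimp and H1f9 of those lists had no match and Six6os1 matched through an older symbol. No test was possible, since each list pools its libraries. The software was matplotlib 3.10.9, pandas 2.3.3, numpy 2.4.6 and Python 3.11.15. With bedtools 2.31.1 the number of genes with a peak in the window came out the same for 3 of 3 lists. The overlap and assignment rules were tested on simulated data (200 of 200 planted peaks found and assigned).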

Additional observations from a re-analysis of the deposited data

How the results depend on the processing

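Of 66 values of 15 results under other settings, 53 stayed within 1.5 times the reported count or within the spread over members, and 13 did not. With the gene body alone, INO80 was present at 3 members in place of 5, knockout H2A.Z at 4 in place of 7, and H2A.Z in neither genotype at 6 in place of 3. Wild-type H2A.Z fell too, to 4 in place of 6, which counted as within 1.5 times. With only peaks assigned to the member the counts were also 3, 4 and 6, and wild-type H2A.Z was again at 4. With the widest 50% of each list INO80 was present at 3 members in the window, but these were Catsper2, Catsper3 and Izumo1. In the 2 settings before, they were Catsper2, Spaca1 and Zpbp. The peaks kept at Catsper3 and Izumo1 were those nearest to neighbours. At the start site this setting left INO80 at 1 member (Catsper2), and in the window 5 members had H2A.Z in neither genotype. The knockout-only call at Catsper3 ended (0 members) with the gene body alone, with 10 kb on both sides, with the widest 50% of each list and with assigned peaks alone. The start-site counts with windows of 500 bp and 3 kb were 3, 4 and 4, as with 1 kb; restricting them to the 8 members with a promoter entry was chosen after seeing the data. No paired analysis was possible because each list pools the libraries of its group; for the same reason no replicate could be left out. The unknown depth and peak threshold limit every absence reported here.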

Other observations

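Motifs of factors known from spermatogenic promoters were searched on both strands of the 300-base promoters. Members were counted by gene, and Spaca1 has 2 promoter entries, whereas the shares beside them are over single promoters. The CREB/CREM motif TGACGTCA was found in 1 of 8 members, Izumo1, and in 2.23% of 21263 promoters of protein-coding genes. Its shorter form TGACG, which the full motif contains on each strand, was found in Catsper2, Izumo1, Acrbp and Spaca1 (4 of 8, all promoters 23.6%). The MYB motif GGCNGTT was found in Catsper2 and Spaca1 (2 of 8, all promoters 12.3%), and the RFX motif GTTGCC in Acrbp (1 of 8, all promoters 12.6%). The motif GCCATNTT of YY1, a partner of the INO80 complex, was found in 0 of 8 members and 6.37% of all promoters. These are matches of letters and not sites.

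Some genes of the pathway lists differed more in H2A.Z width between genotypes than the pore and acrosome genes above. At Catsperd the knockout peak was 346 bp wide against 1189 bp in the wild type (log2 ratio -1.78, the 1.62nd percentile of shared regions at start sites), at Prss21, a testis serine protease gene, 230 against 684 bp (-1.57, 2.81st percentile) and at Catsperz 202 against 588 bp (-1.54, 2.94th percentile). The Catsperd peaks also cover the start of Lonp1, and INO80 overlapped them but not those of Prss21 and Catsperz. The widest change in the other direction among these lists was at Slc26a8, an anion transporter gene of sperm, with 359 against 207 bp (0.79, 98.3rd percentile). These genes were singled out after their values were seen, and without replicates no difference was tested.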
